A study of Homo sapiens with 6 samples.

Results

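The mitogen-activated kinase ERK is switched on by growth factor receptors through RAS, RAF and MEK, and it then drives transcription of a small set of genes that report its activity. Some of these genes encode its own inhibitors: dual-specificity phosphatases (DUSPs) remove the activating phosphates from ERK, and Sprouty proteins act further up, between the receptor and RAF. Others encode the outputs of the pathway, such as the ETS transcription factors ETV4 and ETV5 and the AP-1 subunit FOSL1. The 10 members described here were taken by identifier from the deposited count table, and are 10 of its 34866 gene identifiers (IDs). The ERK phosphatases are Dusp4 (ENSMUSG00000031530), Dusp5 (ENSMUSG00000034765) and Dusp6 (ENSMUSG00000019960). The Sprouty inhibitors are Spry2 (ENSMUSG00000022114) and Spry4 (ENSMUSG00000024427), and the ETS factors are Etv4 (ENSMUSG00000017724) and Etv5 (ENSMUSG00000013089). The other output genes are Phlda1 (ENSMUSG00000020205), Epha2 (ENSMUSG00000006445) and Fosl1 (ENSMUSG00000024912). All 10 passed the filter on low counts that left 11400 IDs for testing.

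RNA sequencing was done on cells labelled as MKN45, a line from a human gastric adenocarcinoma that is known for an amplified MET receptor gene and that the design text describes as negative for the mucin MUC6. The 3 control samples received an adenovirus with a control short hairpin RNA (shRNA), and the 3 others received an adenovirus with an shRNA against GOLPH3, a Golgi protein that helps to keep glycosyltransferases in place. Both groups thus carry an adenovirus. The comparison asks how expression differs with the GOLPH3 shRNA, in a study on Golgi stress in gastric tumours. The sources used here do not give the time after infection, the number of hairpins or whether samples 1 to 3 of a group were separate cultures. The p-values then reflect no more than how far these samples scatter, and that scatter may be technical.

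Facts of the whole table bear on every value below. Its IDs are those of mouse genes, although the cells are labelled human, and human reads assigned to mouse gene models cannot be told apart here from reads of mouse cells. A level is therefore a number of reads assigned to an ID. Comparisons between libraries are of the same ID, or of the ratio of the same pair of IDs. The level of GOLPH3, the markers of gastric epithelium and other cell types, and the other genes of the ERK pathway were not analysed here, because the table pairs its IDs with no symbols and 0 of them were found in the gene name tables used. The control libraries held 6287037 to 7355140 estimated counts and the GOLPH3 shRNA libraries 4977645 to 5676169, so depth moved with the group.

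Human RefSeq promoters (GRCh38.p14), from 250 bases before to 50 after a transcript start, were matched by symbol for 5 of the 10 members: DUSP6, SPRY2, SPRY4, PHLDA1 and EPHA2. The others are DUSP4, DUSP5, ETV4, ETV5 and FOSL1. The promoters of DUSP6 and SPRY2 are shown because these genes fell the most, and that of SPRY4 because it is the paralog of SPRY2. ETS factors bind sequences built on GGAA, and capitals mark the letters CCGGAA on either strand. DUSP6 lies at chr12:89352452-89352751, minus strand. The SPRY2 window is the one farthest upstream of its 3 starts in the table, at chr13:80341077-80341376, minus strand. SPRY4 lies at chr5:142324198-142324497, minus strand.
DUSP6: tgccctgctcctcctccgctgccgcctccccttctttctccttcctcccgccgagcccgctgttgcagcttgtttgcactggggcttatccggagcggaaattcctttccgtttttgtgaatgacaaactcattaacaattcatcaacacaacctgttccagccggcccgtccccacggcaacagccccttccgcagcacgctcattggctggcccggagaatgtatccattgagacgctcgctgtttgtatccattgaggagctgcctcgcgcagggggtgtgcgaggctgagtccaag
SPRY2: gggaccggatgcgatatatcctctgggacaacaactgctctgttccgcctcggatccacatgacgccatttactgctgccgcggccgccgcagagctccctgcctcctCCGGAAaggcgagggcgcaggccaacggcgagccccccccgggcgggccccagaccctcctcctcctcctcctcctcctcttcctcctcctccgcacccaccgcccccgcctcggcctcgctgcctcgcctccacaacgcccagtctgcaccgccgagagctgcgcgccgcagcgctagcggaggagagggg
SPRY4: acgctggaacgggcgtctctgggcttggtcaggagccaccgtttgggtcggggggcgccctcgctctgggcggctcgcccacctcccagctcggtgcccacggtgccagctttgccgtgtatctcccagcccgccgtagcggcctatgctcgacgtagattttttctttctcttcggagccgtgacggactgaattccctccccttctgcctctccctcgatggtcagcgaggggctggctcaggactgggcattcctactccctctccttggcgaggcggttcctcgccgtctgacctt

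In these windows the letters CCGGAA stood in SPRY2 at position -142 from the start, on the strand of the gene. The DUSP6 and SPRY4 windows, and those of the other SPRY2 starts, did not hold them. Of the 7 windows of the 5 members, 2 held CCGGAA on either strand, the other being that of PHLDA1, where 17.2% of 35116 promoter windows in the table did. The longer ETS letters CCGGAAGT, which contain CCGGAA, were in 0 of the 7 windows and in 4.14% of all. The AP-1 letters TGANTCA, which read the same on both strands, were in 0 of the 7 and in 7.71% of all. The shorter letters GGAA were not searched for, and they also stand in the printed DUSP6 and SPRY4 windows. The matches counted here describe letters in the reference sequence and show no binding.

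With the GOLPH3 shRNA, Spry2, Dusp6, Etv5 and Phlda1 fell, Epha2 rose, and the other 5 members did not pass the test. Spry2 and Dusp6 stood at about 33.4% and 34.4% of the control level, and Etv5 at 48.4%. Among all 11400 tested IDs, 17.8% were called lower and 16.1% higher (adjusted p under 0.05 by Benjamini-Hochberg, from the quasi-likelihood test of edgeR), against 4 and 1 of the 10 members. A called decrease with an estimate of at least 2-fold was found in 3 of the 10 members and in 2.91% of all tested IDs. The test was against no change, not against 2-fold, and the 2-fold cut was not among the planned counts. Etv5 lay near this cut at 2.07-fold lower, and its log2 fold change was -0.96 without GOLPH3 shRNA library 3. The members were chosen with earlier results of these data known, so the shares describe the list and test nothing. The 3 GOLPH3 shRNA values lay wholly below the 3 control values in 5 of the 10 members and in 24.2% of all tested IDs; they lay wholly above in 1 member and in 22.1% of all. The median log2 fold change was -0.32 over the members and 0.0019 over all tested IDs. In bulk RNA, fewer cells that express a gene and less of its RNA per cell cannot be told apart.

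**Figure D1:**
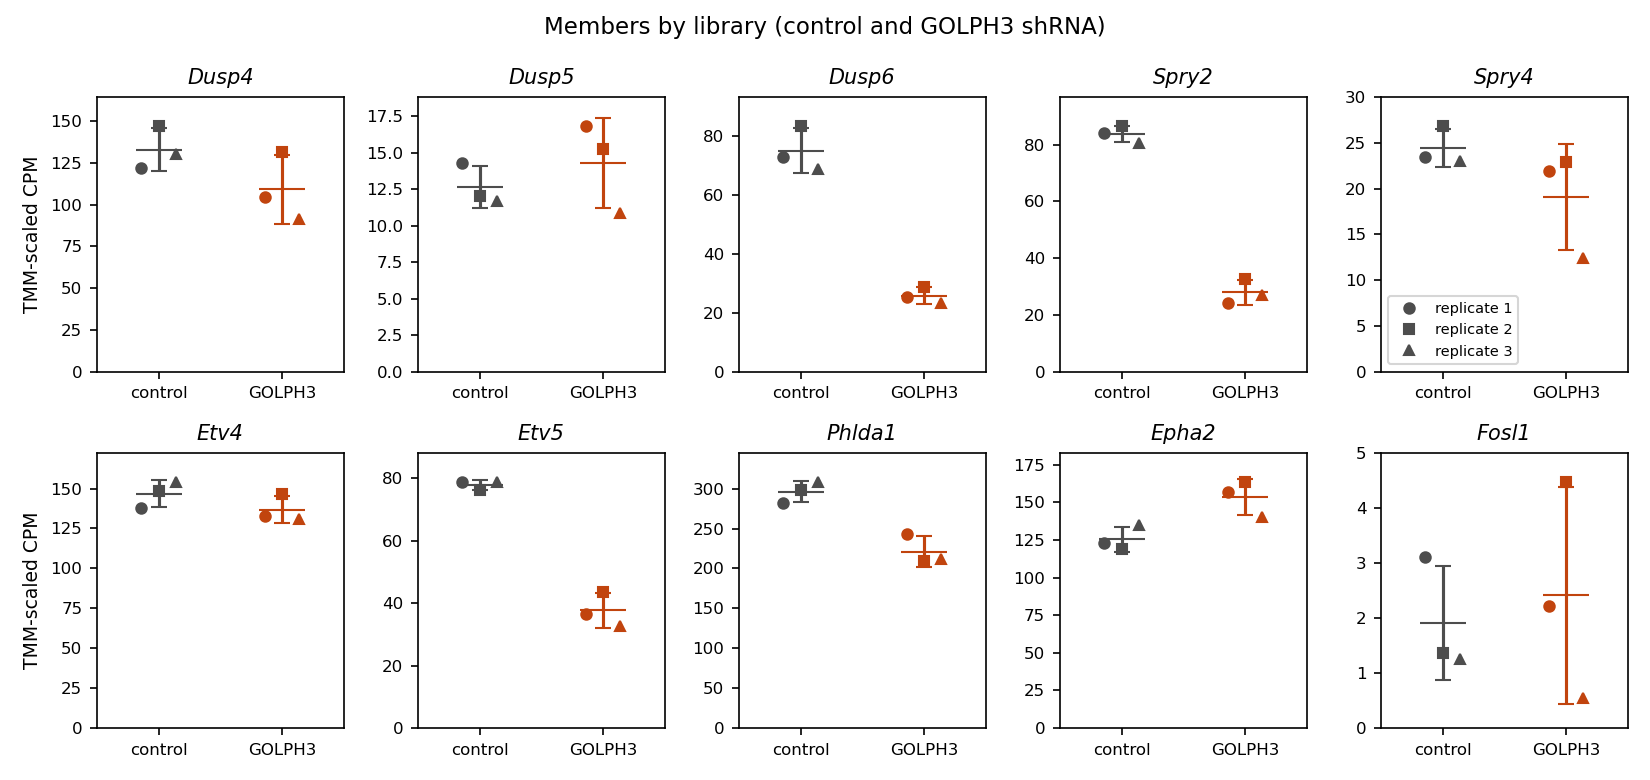
Counts scaled to a common library total (CPM, with trimmed mean factors; linear axes from 0) of the 10 members in each library. Points are libraries, with 1 shape for each replicate number, and the horizontal line and bar give the mean ± SD (n = 3). Dusp6, Spry2 and Etv5 separate widely by group, while Dusp5, Etv4 and Fosl1 overlap.

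Among the phosphatases, only Dusp6 was called. DUSP6 is a cytoplasmic phosphatase that is selective for ERK and is induced by it. Dusp6 had 73.0, 83.5 and 68.9 CPM in control libraries 1, 2 and 3, and 25.3, 28.8 and 23.3 CPM in the GOLPH3 shRNA libraries. Every GOLPH3 shRNA value was thus far below the lowest control, with no overlap. The decrease was 2.91-fold (95% interval 2.45 to 3.46, log2 fold change -1.54, SE 0.12, edgeR adjusted p = 1.51e-07). It rested on 437 to 612 counts per control library and 125 to 161 per GOLPH3 shRNA library, all of them whole numbers.

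DUSP4 is a nuclear phosphatase that acts on ERK and on other kinases of the family. Dusp4 had 122, 147 and 130 CPM in the controls and 104, 132 and 91.3 CPM with GOLPH3 shRNA. The groups overlapped, since GOLPH3 shRNA library 2 stood above control libraries 1 and 3. The log2 fold change was -0.29 (SE 0.11, 95% interval -0.53 to -0.044), and it missed the threshold (edgeR adjusted p = 0.063). The call depended on the setting and on single libraries. With all 6 libraries, Dusp4 was called lower without the filter on low counts (-0.30, edgeR adjusted p = 0.0047) and among IDs with whole counts only (-0.27, edgeR adjusted p = 0.017). These fits also lowered the edgeR adjusted p of Dusp6, to 1.2e-34 and 8.3e-17, at log2 fold changes of -1.56 and -1.52. The calls of Dusp4 there thus came with little change in its estimate. It was not called by DESeq2 (-0.29, adjusted p = 0.077) or limma-voom (-0.30, adjusted p = 0.051). Without GOLPH3 shRNA library 2 it was called at -0.45 (edgeR adjusted p = 0.0043), without control library 1 at -0.35 (edgeR adjusted p = 0.048), and without GOLPH3 shRNA library 3 it was -0.18 (edgeR adjusted p = 0.26). DUSP5 is a nuclear phosphatase specific for ERK. Dusp5 had 14.3, 12.0 and 11.7 CPM in the controls and 16.8, 15.2 and 10.8 CPM with GOLPH3 shRNA, from 60 to 92 counts in each library. The GOLPH3 shRNA values lay on both sides of the controls, with a log2 fold change of 0.17 (95% interval -0.26 to 0.61, edgeR adjusted p = 0.55). It was 0.038 without GOLPH3 shRNA library 1 and 0.33 without library 3, and was called in neither.

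The Sprouty genes showed a like contrast. SPRY2 is an inhibitor of receptor tyrosine kinase signalling that ERK activity induces. Spry2 had 84.1, 86.6 and 80.7 CPM in the controls and 24.1, 32.6 and 27.1 CPM with GOLPH3 shRNA. The controls lay close together, with a coefficient of variation of 3.53%, and far above each GOLPH3 shRNA library. The decrease was 2.99-fold (95% interval 2.53 to 3.54, log2 fold change -1.58, SE 0.11, edgeR adjusted p = 9.38e-08). Its estimated counts, 512 to 635 in the controls and 119 to 182 with GOLPH3 shRNA, had a fractional part in all 6 libraries. Reads may thus have been divided between gene models, which could make the level of Spry2 less certain than that of Dusp6. This was not tested.

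SPRY4 is a related Sprouty inhibitor of the pathway. Spry4 had 23.5, 26.9 and 23.0 CPM in the controls and 21.9, 22.9 and 12.5 CPM with GOLPH3 shRNA. Its estimated counts were whole numbers in only 3 of the 6 libraries. All 3 GOLPH3 shRNA values were below the controls, but library 2 by less than 0.1 CPM, and only library 3 stood clearly apart. The log2 fold change was -0.36 (SE 0.19, 95% interval -0.77 to 0.049, edgeR adjusted p = 0.16). Without library 3 of the GOLPH3 shRNA group it was -0.13 (edgeR adjusted p = 0.56).

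ETV4 and ETV5 are closely related ETS factors of the PEA3 group that act at the end of the pathway. Etv5 had 78.8, 76.2 and 78.8 CPM in the controls and 36.7, 43.7 and 32.7 CPM with GOLPH3 shRNA. The control values spanned less than 3 CPM, and no GOLPH3 shRNA library came near them. The decrease was 2.07-fold (95% interval 1.75 to 2.43, log2 fold change -1.05, SE 0.11, edgeR adjusted p = 3.89e-06), from whole counts of 500 to 559 and of 181 to 244. Etv4 had 138, 149 and 154 CPM in the controls and 133, 147 and 131 CPM with GOLPH3 shRNA. Its groups overlapped, and the log2 fold change was -0.10 (95% interval -0.27 to 0.066, edgeR adjusted p = 0.35). The interval excludes a decrease of Etv4 beyond 1.20-fold.

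**Figure D2:**
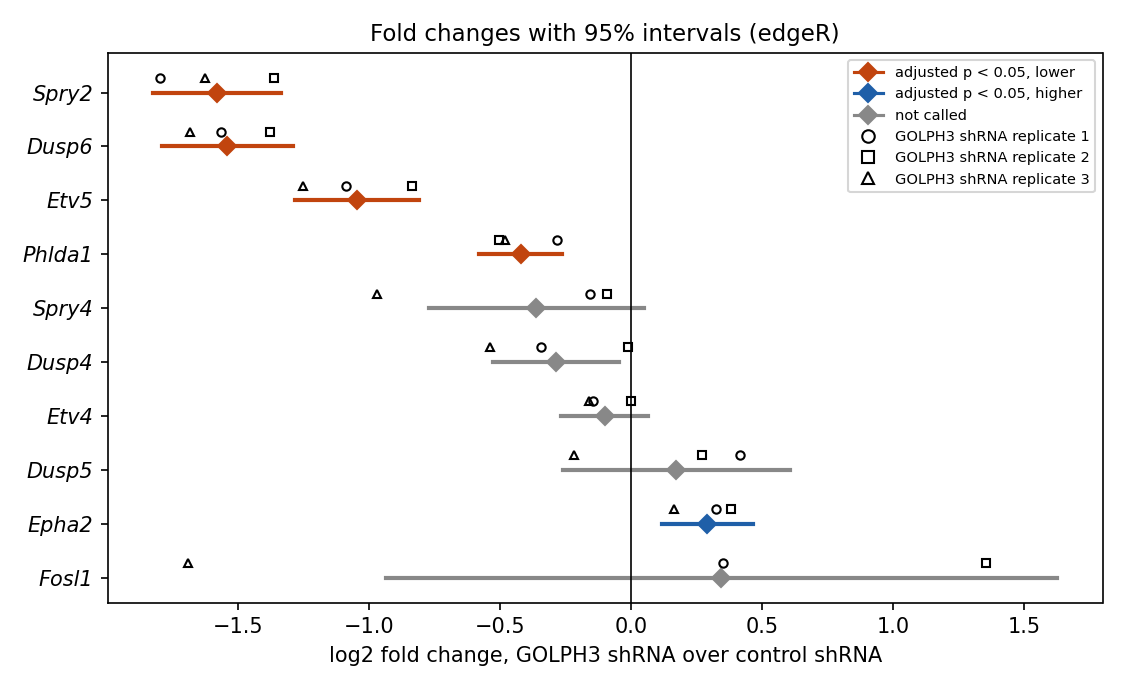
Log2 fold changes of the members, GOLPH3 shRNA over control shRNA (diamonds, edgeR) with 95% intervals (lines). Open symbols give each GOLPH3 shRNA library against the mean log2 CPM of the controls. Spry2, Dusp6 and Etv5 lie left of -1, with all 3 libraries on the same side of 0.

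The 3 remaining output genes did not move together. PHLDA1 is a pleckstrin homology-like domain protein induced by growth factors. Phlda1 had 282, 298 and 308 CPM in the controls and 243, 209 and 212 CPM with GOLPH3 shRNA. Its estimated counts were whole numbers in 5 of the 6 libraries. The groups did not overlap, and the decrease was 1.34-fold (95% interval 1.20 to 1.496, log2 fold change -0.42, SE 0.075, edgeR adjusted p = 0.000441). EPHA2 is a receptor tyrosine kinase for ephrin-A ligands and a transcriptional target of ERK. Epha2 had 123, 119 and 135 CPM in the controls and 157, 163 and 140 CPM with GOLPH3 shRNA, so it was higher in 3 of 3 libraries. The increase was 1.22-fold (95% interval 1.08 to 1.38, log2 fold change 0.29, SE 0.082, edgeR adjusted p = 0.012). Its estimates were fractional in all 6 libraries, and the call was lost without control library 2 (edgeR adjusted p = 0.072) and without GOLPH3 shRNA library 1 (0.058) or 2 (0.056).

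FOSL1, also called FRA1, is an AP-1 subunit whose gene and protein both respond to ERK. Fosl1 collected 20, 10 and 8 counts in the controls and 11, 25 and 3 counts with GOLPH3 shRNA. These few counts were scattered in both groups, with coefficients of variation of 54.4% and 81.7%. The log2 fold change was 0.35 with a 95% interval from -0.94 to 1.63 (edgeR adjusted p = 0.69), and without GOLPH3 shRNA library 2 it was -0.48, so no direction is given.

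Spry2 and Dusp6 had the largest estimated decreases, followed by Etv5 and Phlda1, but differences between these genes were not tested directly. The intervals of Spry2 and Dusp6 overlapped almost wholly, so these neighbours did not differ beyond their errors. The upper bound of Etv5 (2.43-fold) lay just under the lower bounds of Dusp6 (2.45-fold) and Spry2 (2.53-fold), and that of Phlda1 (1.496-fold) lay under the lower bound of Etv5. Only 96 of the 11400 tested IDs had a lower log2 fold change than Spry2, 107 than Dusp6 and 345 than Etv5. Phlda1 had 2188 below it. With every library thinned to the smallest total, a step chosen after seeing the data, the log2 fold changes were -1.57 for Spry2, -1.56 for Dusp6, -1.04 for Etv5, -0.42 for Phlda1 and 0.31 for Epha2, and each was still called. The part of depth in these differences was not tested beyond this.

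**Figure D3:**
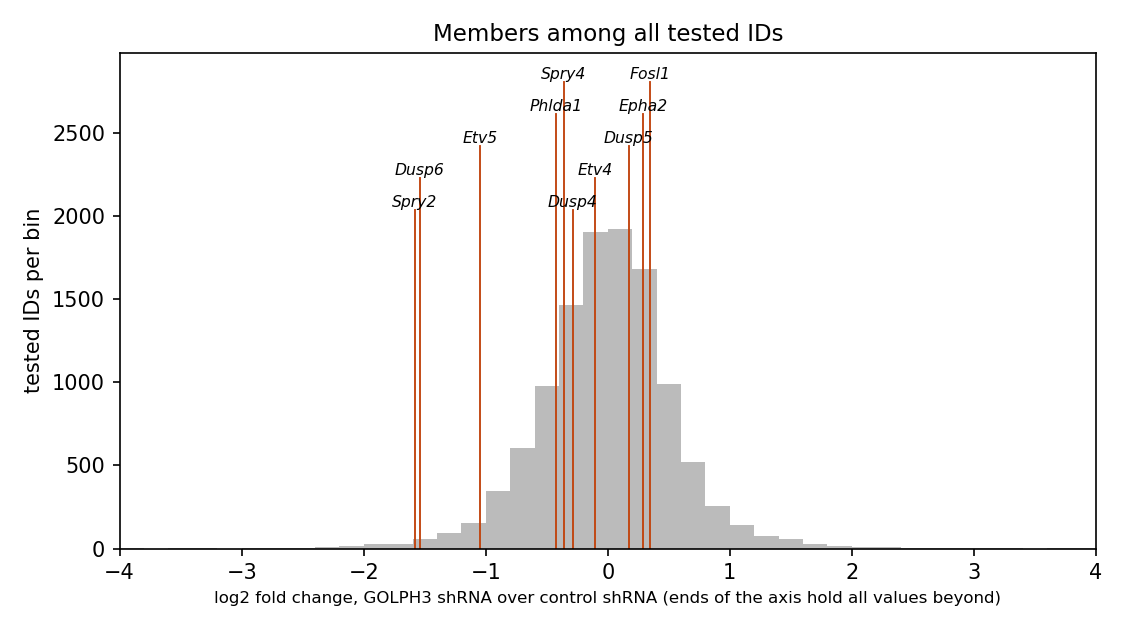
Distribution of log2 fold changes, GOLPH3 shRNA over control shRNA, over all 11400 tested IDs (grey bars, IDs per bin) with the members marked by vertical lines. Spry2, Dusp6 and Etv5 lie in the lower tail, and the other 7 members lie in the bulk of the distribution.

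Whether related genes moved by unlike amounts was tested with their count ratio within each library, which depends on no scaling between libraries. This ratio does depend on how reads were assigned to each ID. The log2 ratio of Spry2 to Spry4 was 1.83, 1.69 and 1.81 in control libraries 1, 2 and 3, and 0.14, 0.51 and 1.11 with GOLPH3 shRNA. The ratio was lower in 3 of 3 GOLPH3 shRNA libraries than in any control, with a mean difference of -1.19, or 2.28-fold. The log2 ratio of Etv4 to Etv5 was 0.80, 0.96 and 0.97 in the control libraries and 1.85, 1.74 and 2.001 in the GOLPH3 shRNA libraries, a difference of 0.95 or 1.94-fold. Here too the groups did not overlap.

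Among the phosphatases, the log2 ratio of Dusp4 to Dusp6 was 0.82 ± 0.091 in the control group and 2.06 ± 0.11 in the GOLPH3 shRNA group (mean ± SD, n = 3), a 2.36-fold difference. That of Dusp5 to Dusp6 was -2.56 ± 0.22 and -0.87 ± 0.26, a 3.24-fold difference, and neither pair overlapped between groups. That of Dusp4 to Dusp5 was 3.39 ± 0.27 and 2.93 ± 0.27, and it overlapped. For the 4 ratios that separated, a two-sided exact permutation test gave p = 0.1, its lowest possible value for groups of 3, and 0.125 after Benjamini-Hochberg adjustment over the 5 ratios. For Dusp4 to Dusp5 the exact permutation p was 0.2 (adjusted 0.2). None of the 5 could pass 0.05 in this design. Separation of such a ratio was common where the denominator had itself fallen: of the other 11399 tested IDs, 93.2% had a ratio to Dusp6, and 83.8% a ratio to Etv5, that lay wholly above the controls in the GOLPH3 shRNA libraries. The separation of Dusp4 to Dusp6, Dusp5 to Dusp6 and Etv4 to Etv5 is therefore shared with most IDs. A ratio to Spry4 that lay wholly below the controls, as that of Spry2 did, was found in 2.71% of the other IDs. This share cannot be set against those to Dusp6 and Etv5, where the member that fell more was the denominator. In Spry2 to Spry4 the member that fell more was the numerator, so the shares do not rank the pairs.

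**Figure D4:**
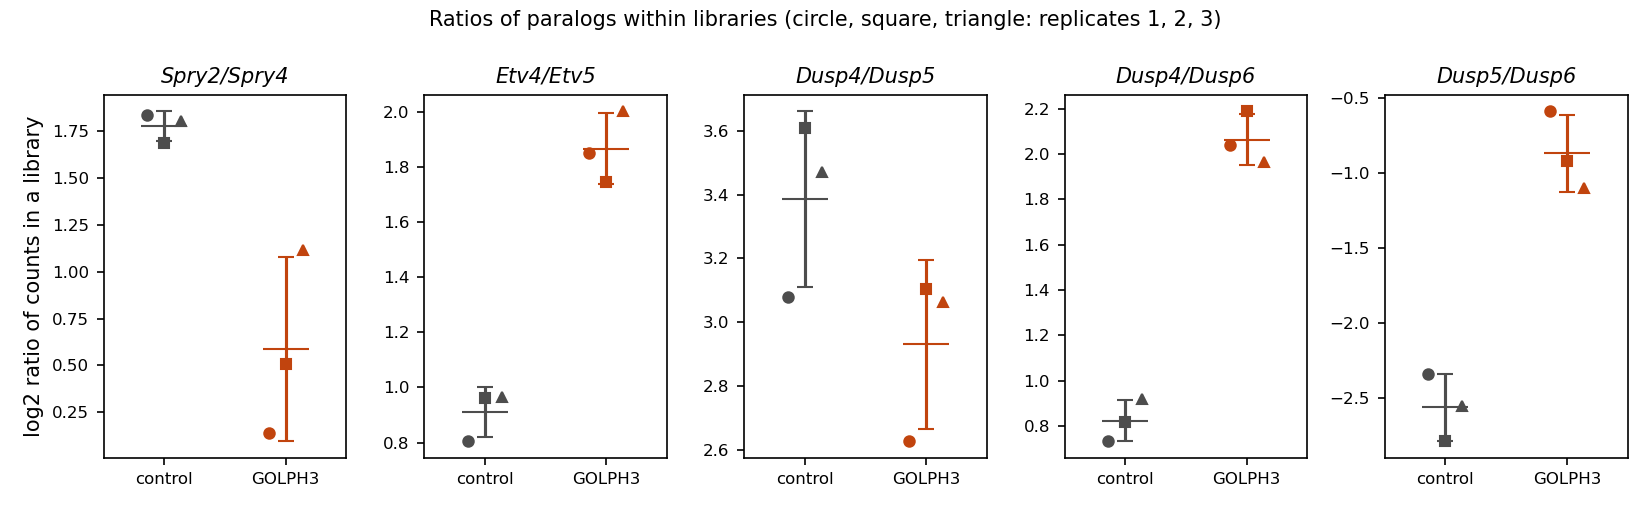
Log2 ratios of estimated counts of 2 related members within each library. Points are libraries and the line and bar give the mean ± SD (n = 3); each panel has its own axis, which does not start at 0. The ratios that involve Spry2, Etv5 or Dusp6 separate by group, and Dusp4 to Dusp5 overlaps.

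The GOLPH3 shRNA libraries were not alike in these genes. Library 2 had the highest CPM of the 3 in 8 of the 10 members, and in 35.5% of all tested IDs. Library 3 had the lowest in 8 of the 10 members, and in 35.5% of all tested IDs. For Dusp6, Spry2 and Etv5, library 2 was nearest to the controls, with log2 differences of -1.38, -1.36 and -0.83 from their mean. Library 1 differed by -1.56, -1.80 and -1.09, and library 3 by -1.68, -1.63 and -1.25. The 3 strongest decreases were thus present in each library, while the values of Dusp4, Dusp5, Spry4 and Fosl1 depended on which library was read. The labels give no batch, and the level of GOLPH3 in each library was not analysed here.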

How the data were processed

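The file the authors deposited holds estimated counts, with gene IDs in rows and 1 column per library. RNA was taken on spin columns and made into stranded messenger RNA libraries, per the labels' protocols. The submitters' processing notes name the build mm10. Of the quantifier, the annotation release and the strand setting, the sources used here say nothing. Estimated counts were rounded to whole numbers and filtered with filterByExpr, which kept 11400 of 34866 IDs and 99.7% to 99.8% of the counts. The 3 GOLPH3 shRNA libraries were compared with the 3 control libraries by edgeR 4.0.16 in R 4.3.3 (trimmed mean factors, quasi-likelihood test, Benjamini-Hochberg adjustment over all tested IDs), and the rows of the members were then read. The procedure was tested on simulated data, where it recovered 47.8% of 1.5-fold, 67.2% of 2-fold and 97.0% of 4-fold changes. Of its 151 calls there, 10 were false. The simulation changed 200 of 11400 IDs, with scatter fitted to these same 6 libraries. In the data, 2030 IDs were called lower and 1840 higher. The rates therefore describe the simulation and not this comparison. The SE was taken from the log2 fold change and the F statistic (fold change over root F). Ratios within a library used a prior of 0.5 counts; the share of other IDs with such a ratio was added after seeing the data. All 10 members were named whatever their values; gene and marker lists set by symbol could not be matched to IDs and were not analysed here. The members and lists were chosen with earlier results of these data known. Alternatives used other scalings, filters and rounding, DESeq2 1.42.0, limma-voom (limma 3.58.1), a block by replicate number, leaving out each library, thinned libraries, and IDs with whole counts only (within 1e-06 in all 6 libraries).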

Additional observations from a re-analysis of the deposited data

How the results depend on the processing

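Spry2, Dusp6, Etv5 and Phlda1 were called lower under every alternative run for them. Their log2 fold changes ran from -1.71 to -1.49, -1.63 to -1.46, -1.17 to -0.96 and -0.50 to -0.38. The number of members called lower was 4 or 5, with Dusp4 as the fifth. Dusp4 was called by edgeR without a filter (adjusted p = 0.0047), on whole counts only (0.017), without control library 1 (0.048) and without GOLPH3 shRNA library 2 (0.0043). It was not called by DESeq2 (adjusted p = 0.077) or limma-voom (adjusted p = 0.051). Leaving out 1 library gave 0 to 1 members called higher, since Epha2 was lost in 3 of these fits. Fosl1 ran from -0.48, without GOLPH3 shRNA library 2, to 0.87, without control library 1. With the replicate number as a block, 5 members were called lower, including Dusp4 (log2 fold change -0.29, edgeR adjusted p = 0.018), and 1 higher. Over all tested IDs, the block gave 2045 lower and 1842 higher, against 2030 and 1840 without it. Samples of the same number deviated together only weakly (correlations of 0.032, 0.090 and 0.044 across tested IDs), all under 0.1. Control 1 correlated best with GOLPH3 shRNA library 3 (0.037), and the other 5 samples with their own number. This is a hint of pairing from the data that does not settle what the numbers stand for. The fit of the 6263 IDs with whole counts called 1240 of them lower and 1245 higher; fewer IDs were tested there, and the cause of the more even split was not tested. The ratios of related members kept their direction with a prior of 2 counts. The block gives the same mean difference by construction. Leaving out 1 library cannot reverse a ratio whose groups do not overlap, so these runs say little about the ratios that separated. For Dusp4 to Dusp5, which overlapped, the log2 difference ran from -0.61 to -0.30 with 1 library left out. Fosl1 and Dusp5 had the lowest counts (3 to 25 and 60 to 92); how far depth sets their errors was not tested.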
